A study of Drosophila melanogaster with 3 samples.

Results

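The 101 genes described here are Drosophila melanogaster genes still known by a CG number, the running number that the genome project gave to predicted genes, that were lower in EcR mutant midgut than in the wild-type reference on every array. They were chosen by their measured values: after each array had been centred on its median over probes and the probes of a gene had been averaged, the log2 ratio had to be -1 or lower, a linear ratio of 0.5 or less, on each of the 3 arrays. Of 9757 named genes with a value on every array, 4051 carried a CG number, and 105 of these met the threshold (2.59%). CG7997, CG16758, CG3829 and CG8112 met it too and were left out by the rule, which leaves the 101. Over all named genes the share was 2.88%, among the 5706 with another kind of symbol 3.08% and among probes without a gene name 1.96%, and 100 CG-numbered genes (2.47%) were at 1 or higher on every array. The ratios chose the genes, so they are given below as a description, with no test.

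The 3 arrays, called replicates 3, 4 and 6 after their titles, each compared 1 independent sample of mutant larval midgut with the same reference. The mutants were EcRM554fs/EcRV559fs, which removes the function of every EcR isoform, carried a transgene, hs-EcR-B230.1, that is switched on by heat shock and served to take them through earlier larval life, and were collected at stage 2a, where they arrest late in the third larval stage. The reference was pooled midgut RNA of wild-type Canton S animals of several stages, so genotype, stage, strain and heat treatment cannot be told apart in any ratio. Negative values mean lower in the mutant, which is the likely direction: the mutant is listed first, at 635 nm, and the reference second, at 532 nm, but no label says which was divided by which. With the opposite division every sign below would turn.

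EcR encodes the receptor for the steroid hormone ecdysone, a nuclear receptor that works as a pair with Ultraspiracle and switches target genes on at the pulses of hormone that drive molting and metamorphosis. At metamorphosis the larval midgut is broken down and an adult gut is built in its place. Until then its enterocytes secrete proteases and other hydrolases and take up sugars, amino acids and lipids through membrane transporters. Most of the 101 genes have had little study, and the gene table that names them gives an alias that is not a clone name for 14. A protein family was given from background knowledge for 40. The other 61 were given none here, which does not mean that none is known, and are reported by number, CG14132 also by its alias.

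EcR itself had log2 ratios of 1.72, 0.57 and 2.19 on replicates 3, 4 and 6. It was higher on all arrays and least so on replicate 4 (mean 1.49 ± 0.83, SD, n = 3; limma adjusted p = 0.00443, and 0.056 without replicate 3). The labels do not say which EcR transcripts the array detects, those of the transgene included, so these values leave the genotype unchecked.

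The means of the 101 genes ran from -3.28 to -1.07, that is, from 9.72-fold to 2.10-fold lower, with a median of -1.58 (2.99-fold lower). The median over all 13027 features was 0.0080 and that over all CG-numbered genes 0.048. In 16 genes the mean was -2 or lower, in 40 it lay between -2 and -1.5, and in 45 between -1.5 and -1. On every single array, 5 genes were at -2 or lower.

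**Figure D1:**
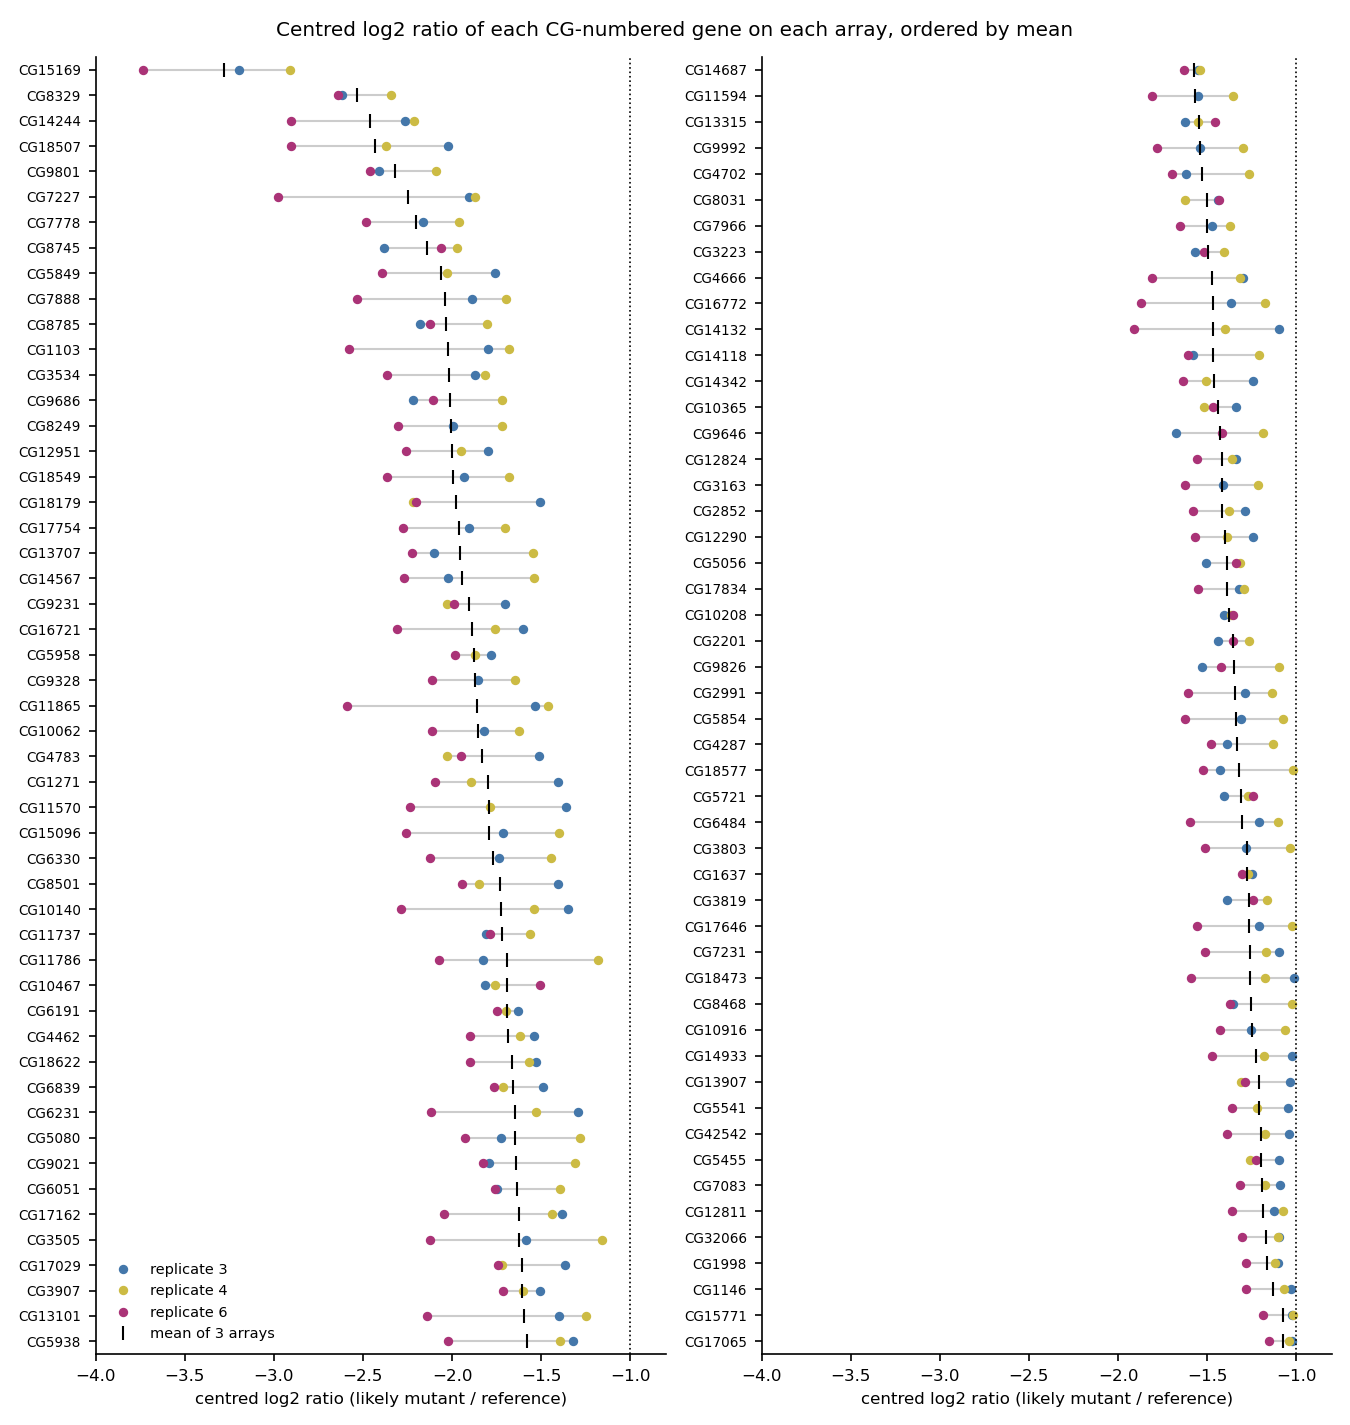
Centred log2 ratio (x axis) of each of the 101 CG-numbered genes (rows, in order of mean) on replicates 3, 4 and 6 (coloured points), with the mean as a black tick, the range as a grey line and the threshold of -1 as a dotted line. CG15169 stands apart at the low end with a mean of -3.28, and replicate 6 gives the lowest point for 80 of the 101 genes.

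CG15169 was the lowest gene of all, with log2 ratios of -3.20, -2.91 and -3.74 on replicates 3, 4 and 6 (mean -3.28 ± 0.42, SD, n = 3). Its highest array was below the lowest array of all but 1 of the other genes, CG7227. CG14244 followed among the genes that were given no family here, at -2.26, -2.21 and -2.90 on replicates 3, 4 and 6. CG18507 was at -2.02, -2.37 and -2.90 on the same arrays. The values of both were lowest on replicate 6, and those of CG9801 were close together at -2.41, -2.09 and -2.46. Further genes among the 20 lowest that were given no family here were CG7778 (mean -2.20), CG5849 (-2.06), CG1103 (-2.02), CG9686 (-2.01), CG17754 (-1.96) and CG13707 (-1.96).

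Secreted and digestive proteases made up the first group with a known family. Serine proteases of the trypsin fold cut proteins in the gut lumen, and some relatives without a working active site act in blood clotting and melanization cascades. CG8329, with the alias SP170, was at -2.62, -2.34 and -2.64 on replicates 3, 4 and 6, the second lowest mean of the set at -2.53 ± 0.16. CG12951 (SP87) was at -1.80, -1.95 and -2.26 on replicates 3, 4 and 6. CG18179 (SP152) was at -1.5, -2.22 and -2.20, so that replicate 3 was its highest array. CG3505, a protease homolog with the alias SPH9, was at -1.59, -1.16 and -2.13, and its SD of 0.48 was among the 5 largest. CG11865, a metalloprotease of the astacin family, had the largest SD of the set (0.63), with -1.54 and -1.46 on replicates 3 and 4 and -2.59 on replicate 6.

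The rest of the family gives these 4 genes a context. A list of it, drawn up after the values were seen, took every gene whose alias in the gene table is SP or SPH with a number of the serine protease series, and 156 of its 262 genes were tested. Of the 152 that are not among the 101 genes, 12 were lower (7.89%), 56 were higher (36.8%) and 84 did not pass limma's test at an adjusted p under 0.05, with a median of 0.15. The lower share leaves out the 4 genes that were chosen for being low, and with them it was 16 of 156 (10.3%). Over all 13027 features, 23.6% were lower and 13.4% higher by the same test. Without replicate 3 the lower count of the family was 4 and the higher count 40. Calls over all 13027 features fell as well without that array, to 1993 lower and 787 higher from 3080 and 1744. CG10232, at -1.24 ± 0.23 (n = 3; limma adjusted p = 8.16e-05), and CG13430, at -1.24 ± 0.35 (adjusted p = 2.76e-04), were the next lowest. At the other end Phae2 was at 2.98 ± 0.45 (adjusted p = 1.67e-05), the protease gene Jon25Biii at 2.73 ± 0.49 (adjusted p = 3.14e-05) and CG5246 at 2.63 ± 0.29 (adjusted p = 9.15e-06). CG18223 (alias SPH200), at -0.065, did not pass.

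**Figure D2:**
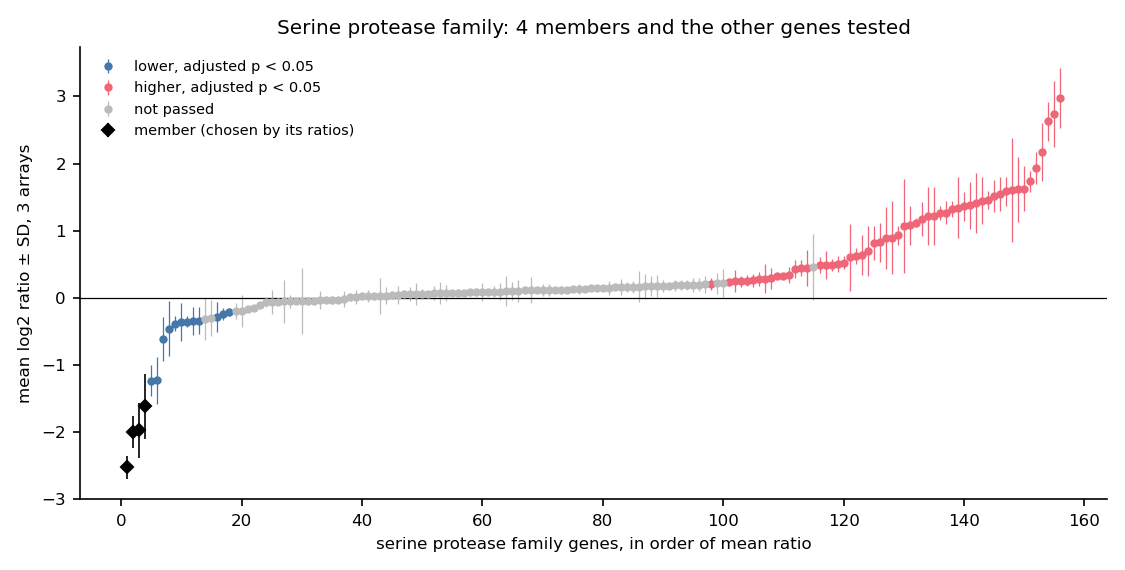
Mean log2 ratio (y axis, bars ± SD over 3 arrays) of the 156 tested genes of the serine protease family in order of their mean (x axis), coloured by limma's call, with CG8329, CG12951, CG18179 and CG3505 as black diamonds. The 4 chosen genes take the 4 lowest places, 12 of the others were lower and 56 were higher.

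Membrane transporters formed a group of 11 genes whose means ran from -2.04 to -1.21 (median -1.65). The size of this group depends on how the groups were drawn. It joins several carrier families, while enzymes were divided into smaller groups. The share of transporters among all tested genes was not counted, so an excess in the set was not tested. The 11 genes include carriers for amino acids, sugars, phosphate or organic anions and monocarboxylates. CG7888, an amino acid carrier with the alias SLC36, was at -1.89, -1.70 and -2.54 on replicates 3, 4 and 6. CG8785, of the same carrier family, was at -2.18, -1.80 and -2.13, with nearly the same mean of -2.04. Both lay below -1.6 on every array. Among sugar transporters of the SLC2 type, CG8249 was at -2.0, -1.72 and -2.31 on replicates 3, 4 and 6. CG6484 was at -1.21, -1.11 and -1.59, above CG8249 on every array. The SLC17-type carrier CG15096 was at -1.72, -1.40 and -2.26, and its relative CG9826 had a mean of -1.35.

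CG18549, which has the alias MFSD11 after a vertebrate orphan carrier, had a mean of -1.99 ± 0.345, and CG6231, of the organic cation transporter family, -1.65 ± 0.43. The monocarboxylate carriers CG8468 at -1.25 ± 0.20 and CG13907 at -1.21 ± 0.15 had the highest means of this group. CG17646, with the alias ABCG1 after a family of lipid-exporting ATP-driven pumps, was at -1.21, -1.03 and -1.56 on replicates 3, 4 and 6.

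Enzymes of sugar metabolism included 3 kinases of the FGGY family, which phosphorylate sugars and glycerol. CG3534, related to xylulose kinases, was at -1.87, -1.81 and -2.36 on replicates 3, 4 and 6. CG1271 was at -1.41, -1.90 and -2.09, and CG11594 at -1.55, -1.35 and -1.81. The values of CG1271 overlapped those of both others, while the highest value of CG3534 and the lowest of CG11594 lay side by side without overlap. CG10467, of the aldose 1-epimerase family, which interconverts the ring forms of sugars, was at -1.82, -1.76 and -1.51 and belongs to the 5 genes for which replicate 6 was the highest array. CG17065, with the alias Amdhd2 after the enzyme that removes the acetyl group of N-acetylglucosamine phosphate, had the highest mean of the set at -1.07 ± 0.07.

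Amino acid, nucleoside and phospholipid enzymes were present as single genes. CG8745, related to aminotransferases that use pyridoxal phosphate, was at -2.38, -1.97 and -2.06 on replicates 3, 4 and 6. CG6330, of the uridine phosphorylase family, which splits uridine into base and sugar phosphate, was at -1.74, -1.45 and -2.12. CG10365, with the alias Chac1 after an enzyme that breaks down glutathione, was at -1.34, -1.52 and -1.47. The spread of CG10365 was small (SD 0.095), as was that of CG2201, of the choline and ethanolamine kinase family, at -1.35 ± 0.089. CG7966, related to selenium-binding proteins, had a mean of -1.5 ± 0.14, and CG3803, related to the heme A synthase that serves cytochrome oxidase, one of -1.28 ± 0.24.

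Nucleases and phosphatases formed 2 further groups of 3 genes each. CG6839, of a family of nucleases that cut DNA and RNA without regard to sequence, was at -1.49, -1.71 and -1.76 on replicates 3, 4 and 6. Its relatives CG14118 and CG3819 had means of -1.46 ± 0.22 and -1.27 ± 0.11. CG17029, with the alias IMP for inositol monophosphatase, was at -1.36, -1.72 and -1.74. CG18473, of the phosphotriesterase-related family, had a mean of -1.26, and the purple acid phosphatase relative CG1637 was at -1.25, -1.27 and -1.30. Its SD over the arrays was 0.029 for the average of 3 probes, while the means of the probes ran from -1.52 to -1.14.

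Lipid-handling and other single genes were the last of those given a family here. CG7227, of the CD36 family of scavenger receptors, was at -1.90, -1.87 and -2.97 on replicates 3, 4 and 6. The distance of replicate 6 from the others gave it the second largest SD, 0.63. CG5958, of the CRAL-TRIO family that carries small lipids, was at -1.78, -1.87 and -1.98. CG10140, a protein with chitin-binding domains of the kind found in the peritrophic matrix, which lines the gut, was at -1.35, -1.54 and -2.29. CG11737 (alias TMEM135) had a mean of -1.72, CG6051, an endosomal FYVE finger protein, -1.63, CG8031 (dMEMO) -1.5 and CG2852, a cyclophilin, -1.42. CG14132, which has the alias DIGF-7 but was given no family, had a mean of -1.47.

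Agreement between arrays differed from gene to gene. The 5 genes with the largest SD were CG11865, CG7227, CG10140, CG1103 and CG3505, with SDs from 0.48 to 0.63, and in all of these replicate 6 was the lowest array. CG1103, for example, was at -1.80, -1.68 and -2.58 on replicates 3, 4 and 6. The 5 with the smallest were CG10208, CG1637, CG14687, CG6191 and CG17065, with SDs from 0.027 to 0.072. For CG17065 this is the SD of an average over probes with means of -0.88 and -1.27. CG10208 was at -1.41, -1.37 and -1.35. CG6191 was at -1.63, -1.70 and -1.75. The median SD of the set was 0.23, against 0.10 over all features and 0.22 for the 100 CG-numbered genes at 1 or higher.

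Much of the spread followed the array. Replicate 6 was the lowest array for 80 of the 101 genes, replicate 3 for 14 and replicate 4 for 7, while replicate 4 was the highest array for 55, replicate 3 for 41 and replicate 6 for 5. The medians over the set were -1.5, -1.40 and -1.76 on replicates 3, 4 and 6. The CG-numbered genes at 1 or higher mirrored this order: replicate 6 was their highest array in 61 of 100 and replicate 4 their lowest in 66. When the arrays were scaled to the same spread, the medians were -1.59, -1.53 and -1.53 and the lowest array was replicate 3 for 38 genes, replicate 4 for 38 and replicate 6 for 25. EcR was lowest on replicate 4 and highest on replicate 6, and the part of this in the order of the arrays was not tested.

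**Figure D3:**
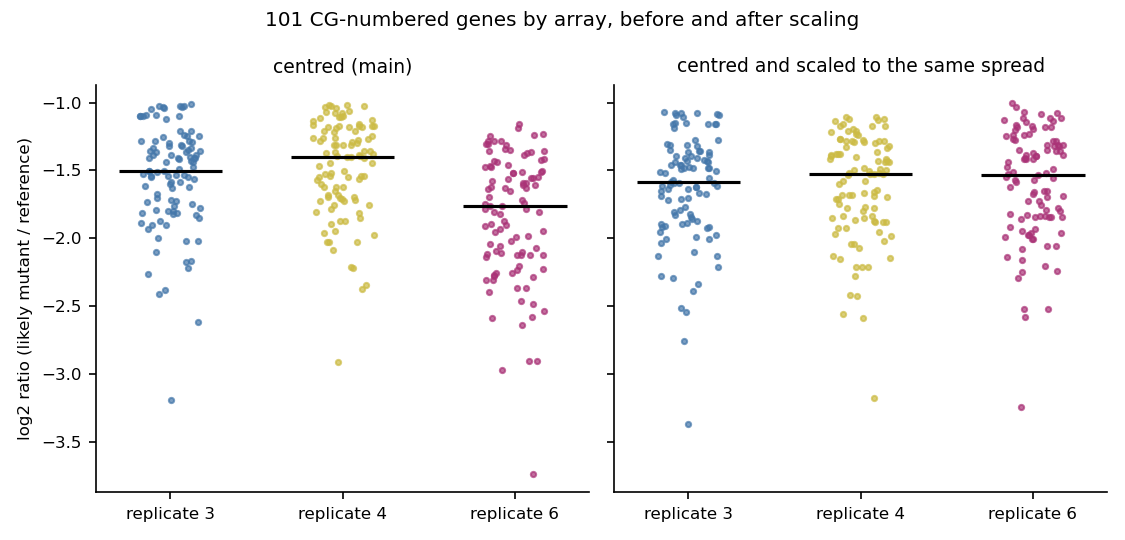
Log2 ratio (y axis) of the 101 CG-numbered genes on each array (points, spread sideways for legibility; black line, median), centred as in the text on the left and also scaled to the same spread over probes on the right. The medians of -1.5, -1.40 and -1.76 come to -1.59, -1.53 and -1.53 after scaling.

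Replicate 4 set the size of the list. On replicate 4, 115 CG-numbered genes were at -1 or lower, against 168 on replicate 3 and 215 on replicate 6. A further 60 were at -1 or lower on exactly 2 arrays, and for 53 of these the missing array was replicate 4. Without replicate 4 the rule would have taken 154 genes. The genes just inside the threshold were CG18473 with -1.01 on replicate 3, and CG18577 and CG15771 with -1.02 on replicate 4. Just outside lay CG5112 and CG10433, each with -0.997 on replicate 4, and CG11905 with -0.995 on the same array. These 6 genes differ little in that value, whereas their means ran from -1.32 for CG18577 and -1.30 for CG11905 to -1.04 for CG10433.

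Of the 101 genes, 92 rested on 1 probe and 9 on several. For 5 of the 9, CG13101, CG15096, CG6330, CG7888 and CG9992, every probe was at -1 or lower on every array. The probes of CG17646 were farthest apart, with means of -1.62 and -0.90. Probes of CG7888 gave -2.33 and -1.75. In CG17065, CG18473, CG1637 and CG17646 at least 1 probe was above -1 on an array, and these genes were in the list through the average of their probes. For CG17065, 1 probe was above -1 on every array, at -0.79, -0.92 and -0.92 on replicates 3, 4 and 6.

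Position on the chromosome gave a view that the rule had not used. The neighbours were taken as the protein-coding gene next to a member on each side in the order of the Release 6 plus ISO1 MT gene table. CG8329 and CG18179 were the only members next to each other. The nucleases CG6839 and CG3819 were separated by CG18223 alone, CG7231 and CG7227 by pes alone, and CG10916 and CG5721 by CG5726 and nopo.

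Of the neighbours that are not members, 154 were tested, of which 53 were lower (34.4%), 18 higher (11.7%) and 83 did not pass. Over all 13027 features, 23.6% were lower and 13.4% higher. CG-numbered neighbours were cut short at the low end, because those that met the threshold are members, except for the left-out gene CG16758. The count was therefore also made over neighbours with another kind of symbol. Of these 87, 35 were lower (40.2%) and 8 higher (9.2%), against 29.4% lower and 12.1% higher among all 5706 such genes. With another kind of symbol, genes at positions 2 and 3 from the member were lower in 39 of 145 cases (26.9%). Without replicate 3 the shares were 24.1% of the neighbours and 19.4% of all such genes, and 33 of the 154 neighbours were lower. The same shares were 34.5% and 29.2% without replicate 4, and 34.5% and 25.3% without replicate 6. A test of the difference was not made. Of the neighbours, 24 overlapped their member in the table, and 7 of the 24 were lower. Whether the probes tell such overlapping genes apart was not tested.

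Next to CG7227, Sirup, an assembly factor of mitochondrial succinate dehydrogenase, was at -1.86, -1.88 and -1.98 on replicates 3, 4 and 6 (mean -1.90 ± 0.065; limma adjusted p = 4.77e-06). On its other side pes, a CD36 family gene like CG7227, was higher, at 0.81, 0.66 and 0.50 (adjusted p = 5.45e-04). These adjacent genes of the family had opposite signs on every array. The gene fat-spondin, next to CG9646, was lower at -1.89 ± 0.39 (adjusted p = 6.26e-05). So were cu, the fly relative of nocturnin, next to CG18577, at -1.44 ± 0.22 (adjusted p = 3.4e-05), the serpin gene Spn88Ea, which overlaps CG42542, at -1.44 ± 0.41 (adjusted p = 2.53e-04), and Gdh, for glutamate dehydrogenase, which overlaps CG5854, at -1.25 ± 0.19 (adjusted p = 4.49e-05). CG14645, next to CG1103, was lower at -1.18 ± 0.25 (adjusted p = 1.11e-04). CG1146 lay next to CG16758, 1 of the 4 genes left out by the rule and so not counted as a member, at -2.86 ± 0.37. CG16758 is counted among the 53 lower neighbours through its limma call, although it had met the threshold on its own values. The 35 lower neighbours with another kind of symbol do not include it.

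The inositol monophosphatase CG17029 lay between CG17026 and CG17028. CG17026 was at -1.34, -0.79 and -1.61 on replicates 3, 4 and 6 and missed the threshold on replicate 4 alone (mean -1.25 ± 0.42; limma adjusted p = 5.46e-04). CG17028, which carries the alias IMP as well, was at -0.79, -0.75 and -0.76 (adjusted p = 8.43e-05). All 3 neighbouring genes were thus below 0 on every array. Beside CG10140 lay CG14109, lower at -0.80 ± 0.078 (adjusted p = 9.6e-05), and CG10725, at -1.1, 0.042 and -1.45, whose call (adjusted p = 0.0369) was lost without replicate 3 (adjusted p = 0.22) and with robust eBayes (adjusted p = 0.141).

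Other members had a neighbour of the opposite sign. CG18180 (alias SP151), next to CG18179 (SP152), was at 1.52, 1.18 and 2.14 on replicates 3, 4 and 6 (mean 1.61 ± 0.49; limma adjusted p = 3.01e-04). CG8329, CG18179 and CG18180 follow each other in the table, so the run held members at -2.53 and -1.98 and then a gene at 1.61. CG16749 (SP91), beside CG12951 (SP87), was higher at 0.82 ± 0.30 (adjusted p = 0.00112). CG15170, beside the lowest gene CG15169, was higher at 1.66 ± 0.22 (adjusted p = 2.09e-05). Higher neighbours also stood beside CG7888, where CG43693 was at 0.96 ± 0.24 (adjusted p = 2.82e-04), beside CG11570, where CG7248 was at 1.72 ± 0.13 (adjusted p = 9.23e-06) and overlaps it, and beside CG14342, where CG5011 was at 1.17 ± 0.070 (adjusted p = 1.92e-05). The detoxification genes Ugt303A1, a glucuronosyltransferase next to CG18577, and GstT4, a glutathione transferase next to CG1998, were at 1.90 ± 0.31 (adjusted p = 3.05e-05) and 2.13 ± 0.17 (adjusted p = 6.93e-06).

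**Figure D4:**
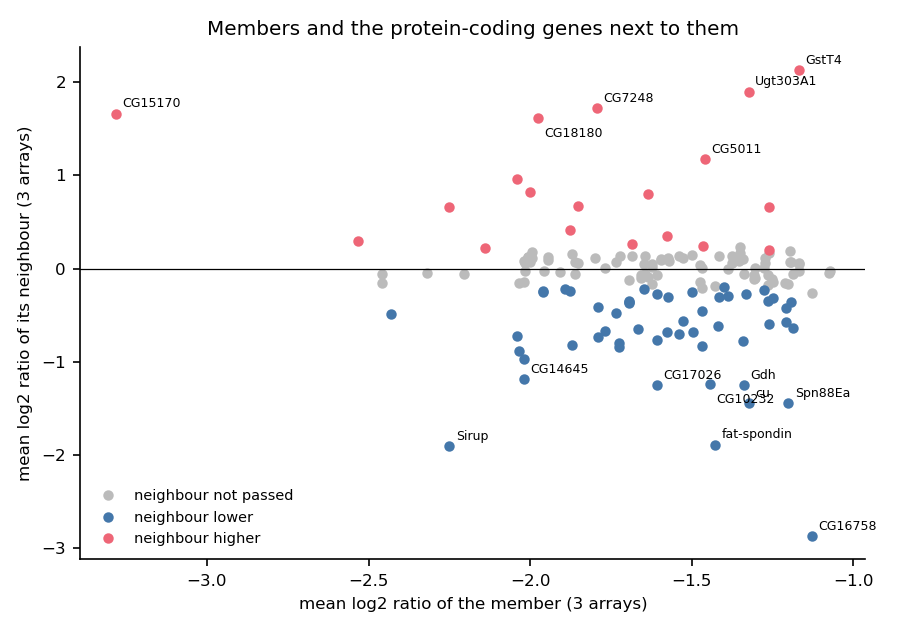
Mean log2 ratio of each tested non-member neighbour (y axis, 3 arrays) against that of the CG-numbered gene it lies next to (x axis), coloured by limma's call; neighbours at 1 or beyond in either direction are named. Of 154 neighbours 53 were lower and 18 higher, and CG15170 at 1.66 lies beside CG15169 at -3.28.

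Ratios give no level of a gene in either RNA, so the tissue could not be checked by presence, and fewer cells of a type cannot be told apart from less RNA per cell. Of the enterocyte markers 5 of 5 tested were higher (8 written), from 0.30 to 1.48. The count was 4 of 5 when centred on chemosensory receptor probes, and 4 of 5 without replicate 4. Jon25Bii, alphaTry and betaTry of this list are also in the serine protease list, so their values count in both. All marker lists were chosen with earlier results of these data known. Lists for tissues around the gut were mixed. Of the 25 markers tested outside the gut lists, 9 were lower and 4 higher. Over all 13027 features, 23.6% were lower and 13.4% higher by the same test. The lists hold few genes each, and no count was tested against these shares. The tracheal markers btl, Gasp and obst-A were lower (3 of 3 tested, 4 written), with list medians of -0.89, -0.75 and -1.01 on replicates 3, 4 and 6. Fat body markers were lower in 3 of 4 tested (8 written), with medians of -0.92, -0.36 and -0.78. The lower genes were Lsp2, Fbp1 and Fbp2, while apolpp at -0.076 did not pass. Whether the loss of EcR lowered these genes apart from the amount of fat body was not tested. Of 4 Malpighian tubule markers tested (5 written) 2 were lower, ry at -1.56 and NaPi-T at -0.30. The others, Irk3 at 0.056 and Cyp6a18 at 0.081, did not pass, and the median of the list was -0.12. Of the fat body calls, that of Fbp2 was lost without replicate 3 (limma adjusted p = 0.139), which left 2, and without replicate 4 there were 4. The 3 tracheal calls were made with any array left out. Muscle markers were lower in 0 of 5 tested and higher in 2, hemocyte markers lower in 1 and higher in 1 of 7, and salivary gland markers lower in 0 and higher in 1 of 2. Of the 4 tested progenitor and endocrine markers 1 was lower and 1 higher. Without replicate 3 the calls were 4 higher for enterocytes, 1 lower for Malpighian tubules, 1 higher for muscle and 1 higher for progenitor and endocrine cells, and the hemocyte and salivary gland calls were lost. The hemocyte calls were also lost without replicate 6. The higher call for progenitor and endocrine cells was lost without replicate 4 and without replicate 6. Centring on chemosensory receptor probes removed the higher calls for hemocytes, salivary gland, and progenitor and endocrine cells. The part of these tissues in the values of the 101 genes was not tested.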

How the data were processed

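RNA of EcR mutant larval midgut was hybridised with a wild-type midgut reference on 3 two-channel arrays, all with the mutant at 635 nm. The authors deposited log2 ratios, 1 for each of 20000 probes on each array. Amplification of the RNA is described per the labels; for scanner software, background correction and spot filter the labels and file headers give nothing. No intensities were used, so signal over background is unknown, and the number of arrays limits the precision. With 1 dye orientation, a dye effect stays in every ratio.

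After median centring of each array, probes with 1 gene symbol in the platform annotation (10828, against 227 with several and 8945 with none) were averaged per gene, and the 13027 features measured on every array were set against 0 with limma 3.58.1 in R 4.3.3 (lmFit, eBayes, two-sided, Benjamini-Hochberg over all features, 6.88 degrees of freedom). The shared reference is 1 control sample whose variation is left out. All 101 genes were matched by gene ID, and their table symbols are the same. The procedure was tested on simulated data, drawn as independent normal values with the variances that limma had estimated. That simulation held no error of the shared reference, no dye effect and no difference in spread between arrays. It cannot show how these act on the calls.

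The genes, the lists and the rule for naming genes were chosen with earlier results of these data known. That rule named the 20 lowest means, genes with an informative alias in place of a product name, members next to each other, the 3 genes on each side of the threshold and the 5 largest and smallest SDs. Genes with a protein family known as background, the neighbours and the serine proteases were named after their values were seen. Protein relatives, protein features and promoter motifs were not analysed here, since no sequences were used. Alternatives were other centrings, scaling, quantile normalization, other thresholds, robust eBayes, a plain one-sample test and each array left out. Python 3.11.15, pandas 2.3.3, numpy 2.4.6 and matplotlib 3.10.9 were used otherwise.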

Additional observations from a re-analysis of the deposited data

How the results depend on the processing

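All 101 genes met the rule under 4 of the other centrings and scalings: centring on probes with a value on every array (101 genes), on chemosensory receptor probes (126), scaling (116) and quantile normalization (118). On the values as deposited 89 did, with every probe of a gene required 97, at a threshold of -1.1 80 (126 at -0.9), and 107, 154 and 102 genes qualified without replicate 3, 4 and 6. The median of the set stayed between -1.68 and -1.45. Lower neighbours numbered 33 to 49 and higher ones 12 to 21 with an array left out, and 120 and 57 of 420 with 3 genes on each side. Over all features 3080 were lower and 1744 higher; the counts were 1993 to 3074 and 787 to 1539 with an array left out, 2730 and 3040 as deposited, 4196 and 959 on receptor centring, and 901 were higher at an adjusted p under 0.01. The plain one-sample test, with the variance of each feature alone, called 3 lower and 1 higher (4370 at an unadjusted p under 0.05). In the serine protease list 4 to 13 were lower with an array left out and 5 at an adjusted p under 0.01. CG18223 ranged from -0.143 to 0.037 with an array left out. Where not given, the cause was not tested. Other definitions of protein relatives were not run. No paired analysis was possible because there is 1 group.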

Other observations

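Features without a single gene name also met the threshold. Of 3270 unnamed probes with a value on every array, 64 (1.96%) were at -1 or lower on all arrays, and so were 6 of the 227 probes with several symbols. One further CG-numbered gene had values on 2 arrays only, both at -1 or lower.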
